A study of Mus musculus with 6 samples.

Results

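Ace, the angiotensin-converting enzyme, lay lower in every array from N2A cells that had received a Pbcas4 shRNA construct than in any array from cells that had received a scramble construct. The 8 genes described here encode Ace and related peptide-cleaving enzymes of the cell surface or secretory pathway: Ace, Ece1, Ece2, Mme, Mmel1, Enpep, Anpep and Dpp4. They were chosen by what their proteins do, with the contrast between the constructs on these same arrays already known, and where several probes name 1 gene the brightest on average over the 6 arrays was taken. All 8 were found among the 19938 genes that had a probe with exactly 1 gene symbol. Because the contrast was known when the genes were picked, their differences between the constructs are given as a description, without a test.

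N2A is a mouse neuroblastoma line. The cells were transiently transfected with a vector that carried, behind a U6 promoter, either a hairpin against Pbcas4, the mouse unitary pseudogene of human BCAS4, or a scrambled hairpin, and total RNA was hybridized to Affymetrix Mouse Gene 1.0 ST arrays. The Pbcas4 shRNA and the scramble had 3 arrays each, described by the submitters as biological replicates and made from triplicate transfections, so that standard errors and p-values measure the spread between those transfections. The scramble is a single permuted sequence. The comparison asks which transcripts change in abundance when the pseudogene's transcript is depleted.

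Peptides that act as hormones or transmitters are inactivated or matured outside the cell by enzymes that sit in the membrane with the active site facing outwards. Ace removes a C-terminal dipeptide, which turns angiotensin I into angiotensin II and destroys bradykinin. The neprilysin family, to which Mme, Mmel1, Ece1 and Ece2 belong, cuts within short peptides such as enkephalins, tachykinins and big endothelin, whereas Enpep and Anpep are zinc aminopeptidases that trim the N-terminus and Dpp4 is a serine protease that removes N-terminal dipeptides after proline or alanine. Ace is best known from vascular endothelium, and Mme, Enpep, Anpep and Dpp4 are abundant on the brush borders of kidney and intestine.

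Values are on the authors' normalized log2 scale, so a difference of 1 is a doubling, and array medians lay between 7.75 and 7.86. The probes used here name no Pbcas4, so its own level was not analysed. All 8 measured markers of sympathetic neuroblastoma, of 10 listed, lay above the background limit defined below, and for 7 of the 8 the Pbcas4 shRNA mean was the lower. Scramble replicate 1 stood apart from the rest of its condition. Its correlation across all probes was 0.987 and 0.988 with the other scramble arrays and 0.990 to 0.993 with the shRNA arrays. Of the shRNA arrays, replicate 1 correlated less with shRNA replicate 2 (0.989) than with scramble replicate 1 (0.992). Its correlation with scramble replicate 3, 0.984, was the lowest of any pair. The members' values without scramble replicate 1 are given with each family. Those of Ace, Ece2, Mme and Dpp4 are also given without shRNA replicate 1. Across all genes, limma, a linear model with moderated variances, called 0% (adjusted p under 0.05 and a difference of over 0.5 in either direction), while 5.46% of genes had an unadjusted p under 0.05 with a lower mean in the shRNA arrays and 6.22% with a higher one. Each value is an average over the cells of a well, so that fewer cells expressing a gene and less of its RNA per cell cannot be told apart.

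An array probe gives a signal even where its transcript is missing, and the deposited table holds no detection call, so the members were first set against olfactory receptor genes, which are known for expression in sensory neurons of the nose. The means of 1027 such genes ran from 3.01 to 9.56 with a median of 5.49, and their 95th percentile, 7.20, was taken as the background limit, above which 68.2% of all genes lay. By this limit 4 members, Ece1, Mme, Enpep and Anpep, lay near background and the other 4, Ace, Ece2, Mmel1 and Dpp4, lay above it. Probes differ in how brightly they respond, so the limit sorts each gene against background and the genes are not ranked against one another.

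The separation from background was wide for only a pair of genes. Ace averaged 9.93 over the 6 arrays and the Ece2 probe 9.69, each above all the olfactory receptor genes, and every array of both lay above the limit. Mmel1 averaged 7.29 and Dpp4 7.23, just over the limit, with 4 of the 6 arrays above it in each case. Ece1, at 7.07, was the gene just under it, and 0 of its arrays exceeded the limit. Anpep (6.58), Enpep (6.55) and Mme (5.85) lay at the 85.0th, 84.7th and 63.4th percentile of the olfactory receptor genes, also with 0 arrays above the limit. The olfactory receptors are a stand-in for background, and their probes can differ from those of the members in sequence and brightness.

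**Figure D1:**
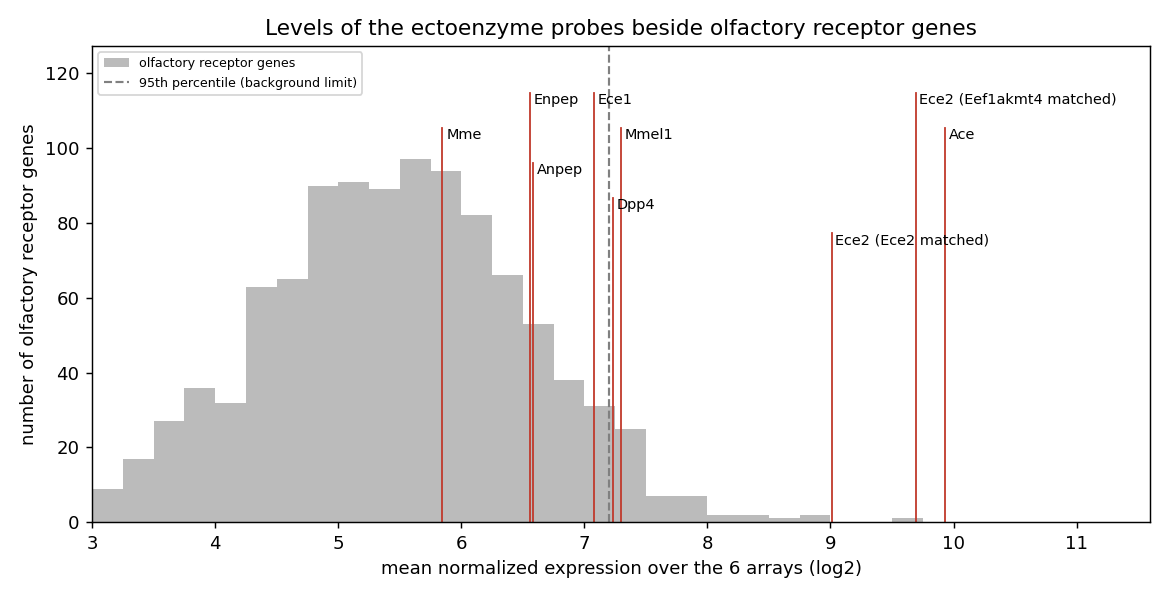
Histogram of the mean normalized log2 expression over the 6 arrays of 1027 olfactory receptor genes, with the mean of each ectoenzyme probe as a red line and the 95th percentile of the receptors, 7.20, as a dashed line. Ace and both Ece2 probes stand to the right of nearly all receptors, Dpp4, Mmel1 and Ece1 lie beside the limit, and Anpep, Enpep and Mme fall inside the distribution.

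Ace was measured by 1 probe, and all the RefSeq transcripts listed for it belong to Ace. Its log2 expression was 8.42, 9.77 and 9.21 in shRNA replicates 1, 2 and 3, against 10.15, 11.05 and 10.97 in scramble replicates 1, 2 and 3. The arrays of the conditions did not overlap: the highest shRNA array, replicate 2, lay 0.37 below the lowest scramble array, replicate 1. The means were 9.14 ± 0.68 with the Pbcas4 shRNA and 10.72 ± 0.50 with the scramble (SD, n = 3 each), a log2 difference of -1.59 with a standard error of 0.39 from limma. On the linear scale the shRNA mean was 0.333 of the scramble mean. Only 3 genes of the 19938 had a more negative difference, which places Ace at rank 4.

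Ace also varied widely between arrays of the same condition. Its residual SD around the condition means was 0.60, against a median of 0.14 over all genes, which puts it at the 98.96th percentile. The lowest shRNA array was replicate 1 and the lowest scramble array was replicate 1 as well. Subtracting the scramble array from the shRNA array of equal number gave -1.73, -1.28 and -1.76 for numbers 1, 2 and 3. A term for the replicate number, the replicate block, left the difference at -1.59 with a smaller standard error of 0.13. That standard error assumes a pairing by number, which the labels do not give. Leaving out single arrays gave differences from -1.90, without shRNA replicate 2, to -1.23, without shRNA replicate 1, and without scramble replicate 1 the difference was -1.87.

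The mean of the 8 measured neuroblastoma markers lay between 11.42 and 11.72 in the shRNA arrays and between 11.84 and 12.16 in the scramble arrays. Of the 8, 0 were called by limma. Th and Stmn2 were lower without overlap, beside 7.63% of all genes. Dbh had the widest difference, -1.34, with overlapping arrays, and Phox2a had a higher mean with the Pbcas4 shRNA. Endothelial markers, in whose cells Ace is classically studied, had list means of 7.54 to 7.68 in the shRNA arrays and 7.47 to 7.71 in the scramble arrays, which overlapped. Of those 6 genes, Kdr lay below the background limit. Tek passed it only through the shRNA arrays, since its scramble arrays read 7.06, 6.93 and 7.01, all under the limit. Of the 6, 3 had a higher and 3 a lower mean with the Pbcas4 shRNA. The conditions did not overlap for 1 in each direction, beside 7.63% of all genes lower and 9.13% higher. Tek, an angiopoietin receptor, was at 7.47 ± 0.23 with the Pbcas4 shRNA and 7.001 ± 0.07 with the scramble, and Vwf, the endothelial clotting factor carrier, at 8.62 ± 0.10 with the Pbcas4 shRNA and 8.93 ± 0.11 with the scramble (SD, n = 3 each). The part of either marker list in the values of Ace was not tested.

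**Figure D2:**
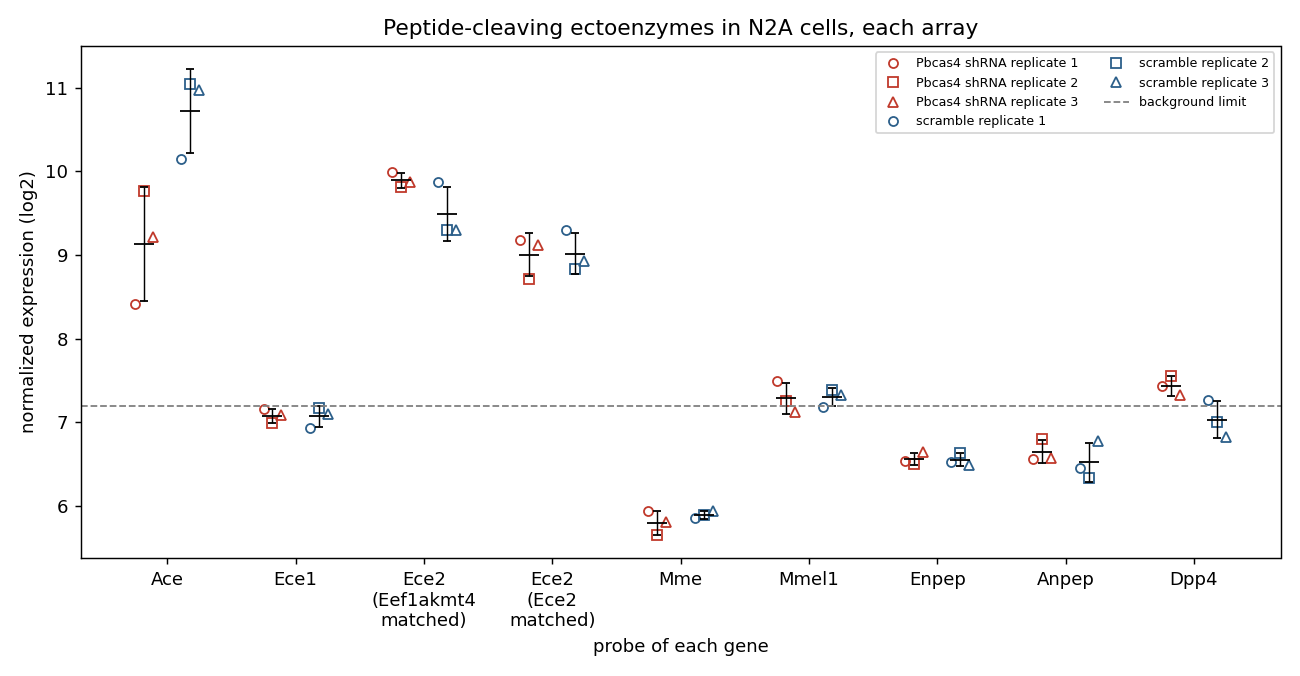
Normalized log2 expression of each ectoenzyme probe in every array, with Pbcas4 shRNA arrays in red to the left of scramble arrays in blue, black bars for the mean and SD of 3 arrays, and the background limit of 7.20 dashed. Ace is the gene whose conditions stand apart visibly, with shRNA arrays at 8.42 to 9.77 and scramble arrays at 10.15 to 11.05, and Ece2 is shown for both of its probes.

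The neprilysin family was described by its 4 members Ece1, Ece2, Mme and Mmel1. Ece2, a converting enzyme of acidic secretory compartments in neurons and endocrine cells, was the member clear of background, and it was measured by 2 probes that did not give the same picture. The probe with the higher mean read 9.99, 9.81 and 9.88 in the shRNA arrays, against 9.87, 9.31 and 9.30 in the scramble arrays. The first of the scramble arrays fell among those of the shRNA, an overlap of 0.055, and without it the difference was 0.59. Other arrays moved the difference down when left out. It was 0.31 without scramble replicate 2, 0.31 without scramble replicate 3 and 0.35 without shRNA replicate 1. The means were 9.89 ± 0.09 with the Pbcas4 shRNA and 9.49 ± 0.33 with the scramble (SD, n = 3 each), a log2 difference of 0.40 (standard error 0.17).

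The RefSeq transcripts listed for that probe are, however, those of Eef1akmt4, a neighbouring lysine methyltransferase gene, and of the read-through transcript Eef1akmt4-ece2, and none is a transcript of Ece2 alone. The second probe lists both Ece2 transcripts besides the read-through. It read 9.17, 8.71 and 9.13 in the shRNA arrays, against 9.30, 8.83 and 8.93 in the scramble arrays. These values overlapped fully, and the means of 9.003 ± 0.25 with the Pbcas4 shRNA and 9.02 ± 0.25 with the scramble (SD, n = 3 each) differed by -0.014 (standard error 0.18). The higher reading of Ece2 in the shRNA arrays therefore came from the probe matched to its neighbour and to the read-through, and was not seen with the probe that lists Ece2 itself.

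Ece1, the main endothelin-converting enzyme, read 7.16, 6.99 and 7.09 in the shRNA arrays, against 6.94, 7.17 and 7.10 in the scramble arrays. The values interleaved, all of them at or under the background limit, and the difference was 0.0093 (standard error 0.099). Mme, which is neprilysin itself, read 5.94, 5.65 and 5.80 in the shRNA arrays, against 5.85, 5.89 and 5.94 in the scramble arrays. Its arrays overlapped too, well inside the olfactory receptor range, with a difference of -0.095 (standard error 0.10). Mmel1, a secreted relative of neprilysin, read 7.49, 7.25 and 7.12 in the shRNA arrays, against 7.18, 7.39 and 7.33 in the scramble arrays. Its conditions differed by -0.015 on average (standard error 0.12), at 7.29 ± 0.19 with the Pbcas4 shRNA and 7.30 ± 0.11 with the scramble (SD, n = 3 each). Without scramble replicate 1 the difference was -0.058 for Ece1, -0.12 for Mme and -0.074 for Mmel1. Single arrays moved Mme in both directions: its difference was -0.16 without shRNA replicate 1 and -0.023 without shRNA replicate 2. Without shRNA replicate 1 its arrays did not overlap, as was so for 28.9% of all genes.

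The aminopeptidases Enpep and Anpep were both near background. Enpep, which trims acidic residues and converts angiotensin II to angiotensin III, read 6.53, 6.50 and 6.64 in the shRNA arrays, against 6.53, 6.64 and 6.49 in the scramble arrays. All 6 values fell within a range of 0.15, and the difference was 0.0069 (standard error 0.088). Anpep, a broad aminopeptidase also known as the myeloid antigen CD13, read 6.56, 6.80 and 6.58 in the shRNA arrays, against 6.46, 6.33 and 6.78 in the scramble arrays. The arrays overlapped, and the difference of 0.12 was smaller than its standard error of 0.14. Without scramble replicate 3 the Anpep arrays did not overlap, as was so for 22.7% of all genes. Single arrays moved the difference: it was 0.25 (standard error 0.12) without scramble replicate 3, 0.028 without scramble replicate 2 and 0.046 without shRNA replicate 2. Without scramble replicate 1 it was 0.093, and that of Enpep was -0.0046.

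Dpp4, which inactivates incretins and several chemokines and trims neuropeptide Y, was the only other member whose conditions did not overlap. It read 7.44, 7.55 and 7.32 in the shRNA arrays, against 7.27, 7.01 and 6.83 in the scramble arrays. The gap between the lowest shRNA array, replicate 3, and the highest scramble array, replicate 1, was 0.053. The means were 7.44 ± 0.12 with the Pbcas4 shRNA and 7.03 ± 0.22 with the scramble (SD, n = 3 each), a log2 difference of 0.40 (standard error 0.13), so that Dpp4 stood above the background limit in the shRNA arrays and below it in the scramble arrays on average. It passed the limit over the 6 arrays only through the shRNA arrays, where all 3 exceeded it, with 1 of the scramble arrays. Without scramble replicate 1 the difference was 0.52, but it was 0.30 without scramble replicate 3 and 0.34 without shRNA replicate 2. Leaving out shRNA replicate 1 left it at 0.40.

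Thus 1 member lay lower and 1 lay higher in the shRNA arrays without overlap, where 7.63% of all genes lay lower and 9.13% higher by the same measure, and nothing is read from these counts because the genes were picked with the contrast known. The remaining 6 members overlapped, and for Ece1, Mme, Mmel1, Enpep, Anpep and the second Ece2 probe the difference was no larger than its standard error. Ece1, Mme, Enpep and Anpep lay at or below the background limit, and whether a change in their transcripts would show on these arrays was not tested.

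**Figure D3:**
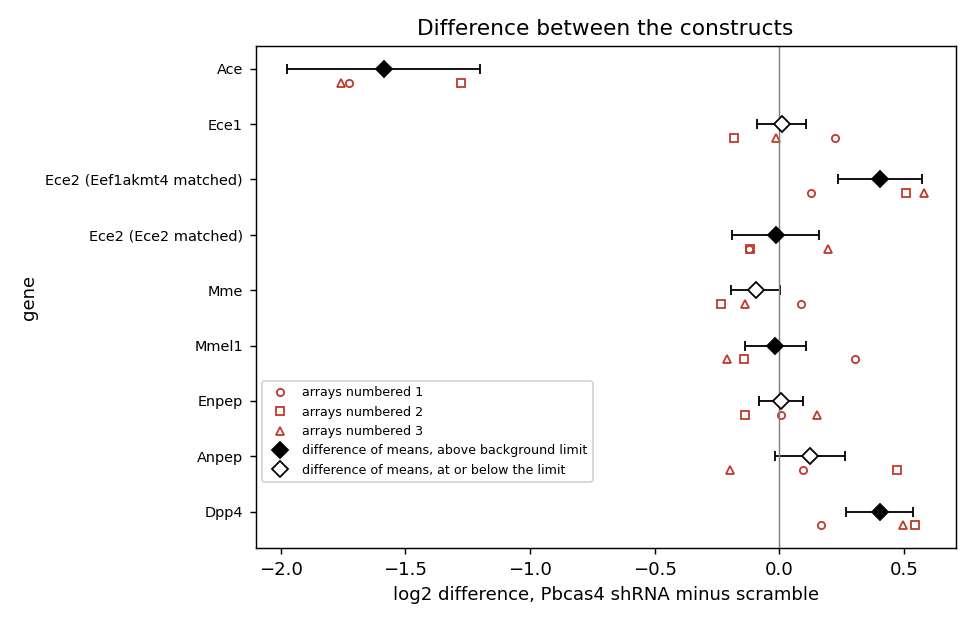
Log2 difference between the condition means, Pbcas4 shRNA minus scramble, of each ectoenzyme probe (diamonds, with the limma standard error; open where the gene is at or below the background limit), and below each the difference between arrays of the same replicate number in red. Ace lies at -1.59 with all 3 numbered differences between -1.76 and -1.28, and the other probes lie between -0.095 and 0.40.

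The other genes of these pathways were taken from 9 lists, of which 104 of 113 genes were measured and 58 lay above the background limit. None was called by limma over all probes, the lowest adjusted p being 0.340. At an unadjusted p under 0.05, 7 genes (6.73%) had a lower mean and 4 (3.85%) a higher mean in the shRNA arrays, beside 5.46% and 6.22% of all genes. The arrays did not overlap for 6 genes that were lower and 8 that were higher, or 5.77% and 7.69% of the 104, beside 7.63% and 9.13% of all genes. These shares were close to or below those of all genes. The median log2 difference over the 104 genes was -0.0083, against 0.0031 over all genes.

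The close relatives of neprilysin overlapped between the conditions. Ecel1, a neuronal relative of neprilysin, was at 8.97 ± 0.27 with the Pbcas4 shRNA and 9.09 ± 0.31 with the scramble (SD, n = 3 each), above background and overlapping. Kel and Phex, the other relatives in that family, lay at or below the limit, as did Fap, a surface protease close to Dpp4, at 5.63 with the Pbcas4 shRNA and 5.60 with the scramble. Of the 8 measured zinc aminopeptidases beside Enpep and Anpep, 4 had a lower and 4 a higher mean, and all 8 overlapped. Lnpep was not analysed here.

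Among serine peptidases related to Dpp4, 7 of 9 lay above background, and 3 of the 9 did not overlap, beside 16.8% of all genes in either direction. Prep, a cytosolic enzyme that cuts peptides after proline, read 13.61, 13.58 and 13.61 in the shRNA arrays, against 13.42, 13.10 and 13.11 in the scramble arrays. Its near relative Prepl read 11.66, 12.01 and 11.78 in the shRNA arrays, against 12.20, 12.23 and 12.24 in the scramble arrays. The relatives thus lay on opposite sides, with log2 differences of 0.39 (standard error 0.11) for Prep and -0.40 (standard error 0.11) for Prepl. Dpp9, a cytosolic dipeptidyl peptidase, was 0.21 higher in the shRNA arrays. Dpp6, an inactive homologue that joins potassium channels, was at 7.96 ± 0.20 with the Pbcas4 shRNA and 8.39 ± 0.24 with the scramble (SD, n = 3 each), and its arrays overlapped.

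In the renin-angiotensin system, where Ace acts, 4 of 8 measured genes lay above background. Beside 16.8% of all genes in either direction, 1 of the 8 did not overlap between the conditions. This was Agtr1a, the main receptor of angiotensin II, which read 7.84, 9.46 and 8.99 in the shRNA arrays, against 9.63, 10.09 and 10.05 in the scramble arrays. The means were 8.76 ± 0.84 with the Pbcas4 shRNA and 9.93 ± 0.26 with the scramble (SD, n = 3 each), a log2 difference of -1.16 (standard error 0.40). As with Ace, shRNA replicate 1 was the lowest array and shRNA replicate 2 came closest to the scramble arrays. Agt, the precursor of angiotensin, was at 7.64 in both conditions, Agtrap, which binds the receptor and promotes its internalization, was 0.33 higher in the shRNA arrays with overlapping arrays, and Agtr2 and Mas1, receptors of angiotensin II and of angiotensin-(1-7), lay below the limit.

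Bdkrb2, the receptor of bradykinin, the other classical substrate of Ace, read 8.80, 9.15 and 9.03 in the shRNA arrays, against 9.21, 9.72 and 9.75 in the scramble arrays. The arrays did not overlap, and the difference was -0.56 (standard error 0.17). The bradykinin precursor Kng1 lay below the limit. In the endothelin system, which Ece1 and Ece2 serve, Edn1 and the receptor Ednrb lay below the limit, Edn2 and Edn3 lay above it, and all 4 overlapped.

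Npy, a peptide transmitter of sympathetic neurons and a substrate of Dpp4, read 10.24, 10.03 and 9.77 in the shRNA arrays, against 10.95, 11.40 and 11.13 in the scramble arrays. The conditions lay well apart, by -1.15 on average (standard error 0.17), with the lowest adjusted p of the pathway genes, 0.340 by limma. Of the 22 measured peptide precursors, 1, Npy, had arrays that did not overlap, beside 16.8% of all genes in either direction. Below the limit lay 13 of the 22. Of 30 receptors, 3 lay lower and 1 higher in the shRNA arrays without overlap, beside 7.63% and 9.13% of all genes. Besides Bdkrb2, the lower ones were Adcyap1r1, the receptor of the neuropeptide PACAP, by 0.39, and Npr1, a receptor of natriuretic peptides, by 0.31. For Npr1, shRNA replicate 2 and scramble replicate 1 were both at 7.89. The higher one, by 0.24, was Npy1r, a receptor of Npy, which lay below the background limit.

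Of 19 other listed peptidases, not all of which act on neuropeptides, 12 had a higher mean and 7 a lower mean with the Pbcas4 shRNA. Beside 9.13% of all genes higher and 7.63% lower, 5 of the 19 did not overlap, all of them higher. One of them, Mep1b, a subunit of the brush border protease meprin, lay below the background limit. Adam10, a metalloprotease that sheds many membrane proteins, read 11.33, 11.67 and 11.46 in the shRNA arrays, against 10.98, 10.96 and 11.003 in the scramble arrays. Thop1, a cytosolic oligopeptidase that degrades neuropeptides, read 10.59, 10.57 and 10.65 in the shRNA arrays, against 10.42, 10.07 and 9.99 in the scramble arrays. Their differences were 0.51 (standard error 0.11) and 0.45 (standard error 0.13). Ide, the insulin-degrading enzyme, was 0.18 higher and Tpp2, a giant cytosolic tripeptidyl peptidase, 0.14 higher, again without overlap. Adjusted over all probes, the 12 pathway genes above background without overlap had p between 0.340 and 0.660 from limma.

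**Figure D4:**
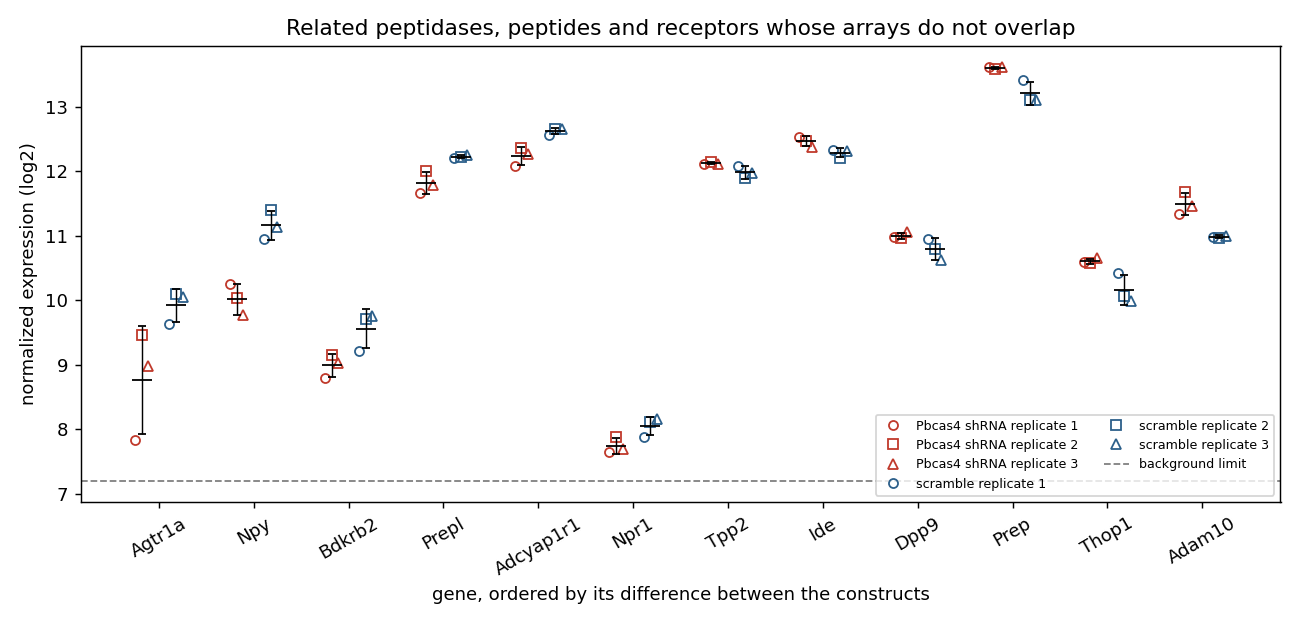
Normalized log2 expression in every array of the 12 related genes above background whose conditions did not overlap, with Pbcas4 shRNA arrays in red to the left of scramble arrays in blue, and black bars for the mean and SD of 3 arrays. The genes run from Agtr1a, at -1.16, to Adam10, at 0.51, and none passed limma's test over all probes.

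The pattern of Ace over the arrays was shared closely by genes outside these lists. Among genes above the background limit, the highest Pearson correlations with Ace over the 6 arrays were those of Tapbp (r = 0.998), Fam43a (r = 0.998), Sctr (r = 0.998), Marchf4 (r = 0.998) and Resp18 (r = 0.998), given as a description because the 6 points share the difference between the conditions and were picked from 13597 genes. Sctr, the secretin receptor, read 9.69, 10.71 and 10.37 in the shRNA arrays, against 11.07, 11.75 and 11.59 in the scramble arrays, and had the widest difference of the 5 (-1.22). Tapbp, whose product tapasin helps load peptides onto MHC class I, had a difference of -0.71. All 5 had shRNA replicate 1 as the lowest array of all and shRNA replicate 2 as the highest of its condition.

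**Figure D5:**
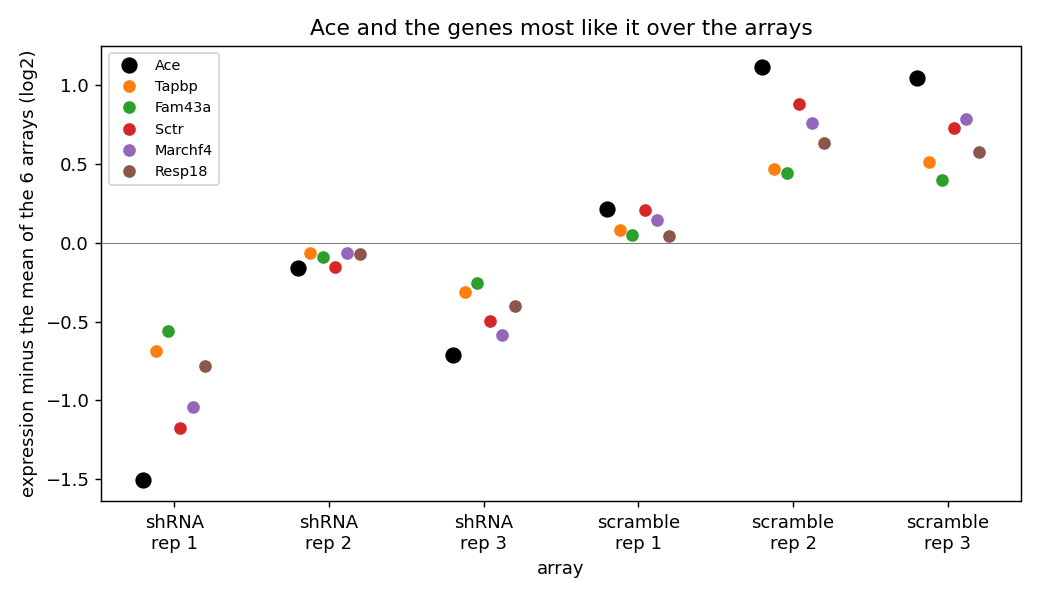
Normalized log2 expression minus the mean of the 6 arrays for Ace (black) and the 5 genes most correlated with it, one column of points per array. In each gene shRNA replicate 1 is lowest and scramble replicates 2 and 3 are highest, with Ace spanning the widest range, 2.63 on the log2 scale.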

How the data were processed

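The authors deposited 1 log2 expression value per probe for each array, already summarized and normalized between arrays; the method of background correction, summarization and normalization is not given in the sources used here. No further normalization was applied, and none of the arrays were identical. Probes were named from GEO's platform annotation: of 35556 probes, 21789 had 1 symbol, 1621 several and 12146 none. Transcripts and older symbols were looked up in RefSeq's GRCm38.p6 table. limma 3.58.1 in R 4.3.3 was fitted to all probes with 1 term for the construct (lmFit, eBayes, two-sided, Benjamini-Hochberg) and checked on simulated data; tables were made with Python 3.11.15.

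The members and lists were chosen with earlier results of these data known. Members are all described; other genes were named if above the background limit without overlap between conditions, or as defining relatives. After condition means were removed, arrays of the same replicate number correlated at 0.291, 0.137 and 0.103 across probes. The labels give no pairing by number, and the data bear it out clearly only for the arrays numbered 1. The correlation of shRNA replicate 2 with scramble replicate 3, 0.199, was above that of either with the array of its own number. Alternatives were quantile normalization, median centring, array weights, a replicate block, a trended and robust variance, leaving out dim probes, averaging all probes that name a gene, other background limits and leaving out each array. Arrays give no molecule count, and their number limits the precision.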

Additional observations from a re-analysis of the deposited data

How the results depend on the processing

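Under 12 alternatives the log2 difference of Ace moved by less than its residual SD, and it ran from -1.90 to -1.23 when single arrays were left out. The replicate block gave -1.59 for Ace (standard error 0.13) and, like the fit without it, called 0 genes. Of 97 values of the members' differences under alternatives, 93 moved by less than the residual SD; the exceptions were Ece1 (-0.097) and Mmel1 (-0.17) without both arrays numbered 1, Mmel1 with array weights (-0.20) and Ece2 by its second probe (-0.014). Leaving out both arrays numbered 1, the second Ece2 probe and the alternatives for the pathway genes were chosen after seeing the data. With array weights, a fit that did not converge and whose heaviest arrays were shRNA replicate 3 (5.32) and scramble replicate 2 (2.39), 1320 genes were called, Ace and the Ece2 probe matched to Eef1akmt4 among them; leaving out single arrays called 0. Members without overlap numbered 2 to 3 when single arrays were left out, when 21.0% to 40.0% of all genes did not overlap. They numbered 6 without both arrays numbered 1, when 55.5% of all genes did not overlap. Ace and Dpp4 were among these members each time. For the pathway genes the count of 14 became 30 without shRNA replicate 1, 27 without shRNA replicate 2 and 39 without scramble replicate 1, where 28.9%, 29.7% and 40.0% of all genes did not overlap. A limit from vomeronasal receptor genes, 6.32, left 1 member near background, Mme, in place of 4, the 99th percentile of the olfactory receptor genes, 7.81, put 6 there, with Mmel1 and Dpp4 added, and their 90th percentile, 6.83, put 3 there; leaving out single arrays gave 4 to 5, the 5 without shRNA replicate 2.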

Other observations

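The genes beside Ace on its chromosome, in the order of the RefSeq table, were looked at after the values of Ace had been seen. Of 6 measured neighbours, Tanc2, a scaffold protein of synapses, was at 10.52 ± 0.31 with the Pbcas4 shRNA and 11.34 ± 0.07 with the scramble (SD, n = 3 each). Dcaf7, an adaptor protein of kinases and ubiquitin ligases, was at 12.33 ± 0.05 with the Pbcas4 shRNA and 12.69 ± 0.05 with the scramble (SD, n = 3 each). Both were lower without overlap, beside 7.63% of all genes, and nothing is read from that count. Cyb561, a cytochrome of secretory vesicles that lies next to Ace, was at 10.11 ± 0.72 with the Pbcas4 shRNA and 10.69 ± 0.11 with the scramble (SD, n = 3 each), with overlapping arrays. Taco1, Map3k3 and Marchf10 overlapped as well, with log2 differences of 0.062, -0.11 and -0.15.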
